A study of Drosophila melanogaster with 4 samples.

Results

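The 31 genes described here encode proteins of the *Drosophila* eggshell, the patterning cues held in it, and the yolk. They were taken as a list of gene symbols, and each symbol matched 1 FlyBase identifier among the 17023 genes counted in every library. They comprised 11 vitelline membrane genes, 7 early and middle chorion genes, 4 late chorion genes, 6 genes of eggshell-borne patterning cues and their anchors, and 3 yolk protein genes. The question was how these genes differed between 2 germline RNAi genotypes, library by library. Poly(A) RNA was sequenced from whole ovaries, taken 1 to 3 days after eclosion from yeast-fed flies, with 2 libraries per genotype. In >*bam* RNAi; *aramis* RNAi, shortened to *aramis* RNAi from here on, RNAi constructs against both genes were expressed from *UAS-Dicer2;NosGAL4*. In >*bam* RNAi, the developmental control, the same driver expressed the *bam* construct alone. Both genotypes thus carried *UAS-Dicer2*, *NosGAL4* and *bam* RNAi, and by their description *aramis* RNAi, with its added construct, set them apart. The sample titles call the control Bam (ii) and do not explain the (ii). *NosGAL4* is a germline driver, so the somatic follicle cells that express most of the 31 genes were not the cells targeted. The paper uses >*bam* RNAi ovaries to enrich for cystoblasts, the daughters of germline stem cells, and states that such samples also contain somatic cells. In the paper, genes lower in cystoblast-enriched ovaries than in young driver-control ovaries with early egg chambers were enriched for vitelline and eggshell coat terms. No ovary without *bam* RNAi was analysed here, and no level below is a wild-type level. The labels number the replicates but do not say that they came from separate flies, so p-values measure only the spread between these libraries, which may be technical.

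Follicle cells secrete the eggshell around the growing oocyte from the inside out, first the vitelline membrane, then the endochorion and exochorion. Vitelline membrane genes are expressed while the oocyte takes up yolk, and chorion genes follow at the end of oogenesis from gene clusters that follicle cells amplify. Yolk proteins come from follicle cells and from the fat body, and cues laid down in the vitelline membrane later start dorsoventral and terminal signalling in the embryo.

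Total counts per library were between 11882367 and 13348602, so 3 counts, taken as the floor, correspond to between 0.225 and 0.252 CPM, a count scaled by the library total. Levels are given as CPM after TMM scaling, edgeR's correction for library composition, or as counts for genes near the floor. Genes are compared with each other in TPM, which divide by exon length before scaling. Differences are log2 fold changes of *aramis* RNAi over >*bam* RNAi, tested with edgeR's quasi-likelihood test and Benjamini-Hochberg adjustment over the 9115 genes that passed its filter on low counts. The targeted gene *aramis*, listed as *ais*, had 149 and 161 counts in *aramis* RNAi and 454 and 507 counts in >*bam* RNAi, and fell (log2 fold change -1.37, SE 0.11, edgeR's adjusted p = 0.000333), and *bam*, targeted in both genotypes, had 16 and 17 counts, against 35 and 25. Of 14 somatic ovary markers 7 rose and 2 fell, of 11 germline markers 1 rose and 10 fell, of 7 fat body markers 4 rose, and of 6 muscle sheath markers all 6 rose. By the same test at an adjusted p under 0.05, 25.4% of the 9115 genes rose and 25.0% fell. The summed level of the somatic markers was 3089 and 2913 CPM in *aramis* RNAi, against 2036 and 1897 CPM in >*bam* RNAi, and that of the germline markers 1434 and 1238 CPM, against 1884 and 1973 CPM. Single genes weighed heavily in both sums. *Fas3* was at 1510 and 1447 CPM, against 821 and 803 CPM. *tj*, 1 of the 2 somatic markers that fell, was at 178 and 153 CPM, against 325 and 375 CPM. *tud*, the germline marker that rose, was at 862 and 715 CPM, against 562 and 575 CPM. The median log2 fold change was 0.51 for the somatic and -1.54 for the germline markers. The muscle markers summed to 29646 and 40937 CPM in *aramis* RNAi, against 19657 and 17121 CPM in >*bam* RNAi. No marker of these ovary, germline and muscle lists was at 0 in any library. In whole ovaries, fewer cells of a type and less RNA per cell cannot be told apart. These markers moved with the genotype, and their part in the results below was not tested.

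Most of the 31 genes were lower in *aramis* RNAi, and the libraries of each genotype were uneven for them. Of the 31, 28 passed the filter, and *Cp15*, *Cp19* and *Femcoat* did not, with at most 13 counts in any library. By edgeR's test at an adjusted p under 0.05, 18 of the 31 fell, where 25.0% of the 9115 genes fell. The genes that rose were *Cp16* and *yellow-g*, 2 of the 31, where 25.4% of the genes tested rose. Over 4-fold falls were called for 13 of the 31, where 2.47% of the genes tested fell that far. The median log2 fold change of the 28 was -1.87, and that of all genes tested was -0.02. Both *aramis* RNAi libraries lay below both >*bam* RNAi libraries for 24 of the 31 genes, where 40.0% of the genes tested were ordered so. The filter keeps a gene that reaches its minimum in 1 genotype alone, so these counts describe the list and are not offered as support.

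Together the 31 genes took 0.353% and 0.155% of the counts in *aramis* RNAi replicates 1 and 2, against 0.895% and 3.34% in >*bam* RNAi replicates 1 and 2. Their 95% Wilson intervals, which cover counting error only, ran from 0.350% to 0.357% and from 0.153% to 0.157% in *aramis* RNAi, and from 0.890% to 0.900% and from 3.33% to 3.35% in >*bam* RNAi. For the summed CPM of the list, *aramis* RNAi replicate 1 was thus 2.18 times replicate 2, and >*bam* RNAi replicate 2 was 3.75 times replicate 1. The number of falls depended on which library was left out. With 1 library left out, and the lone library of that genotype assumed to vary like the other genotype, 14 of the genes fell without *aramis* RNAi replicate 1, and 11 without *aramis* RNAi replicate 2. Without >*bam* RNAi replicate 1, 8 fell, and without >*bam* RNAi replicate 2, 4 fell. In these fits the share of all tested genes that fell was 18.2%, 18.0%, 6.69% and 5.94%. *Vm32E*, *Cad99C*, *fs(1)N* and *fs(1)M3* were the 4 genes called in every one of these fits.

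**Figure D1:**
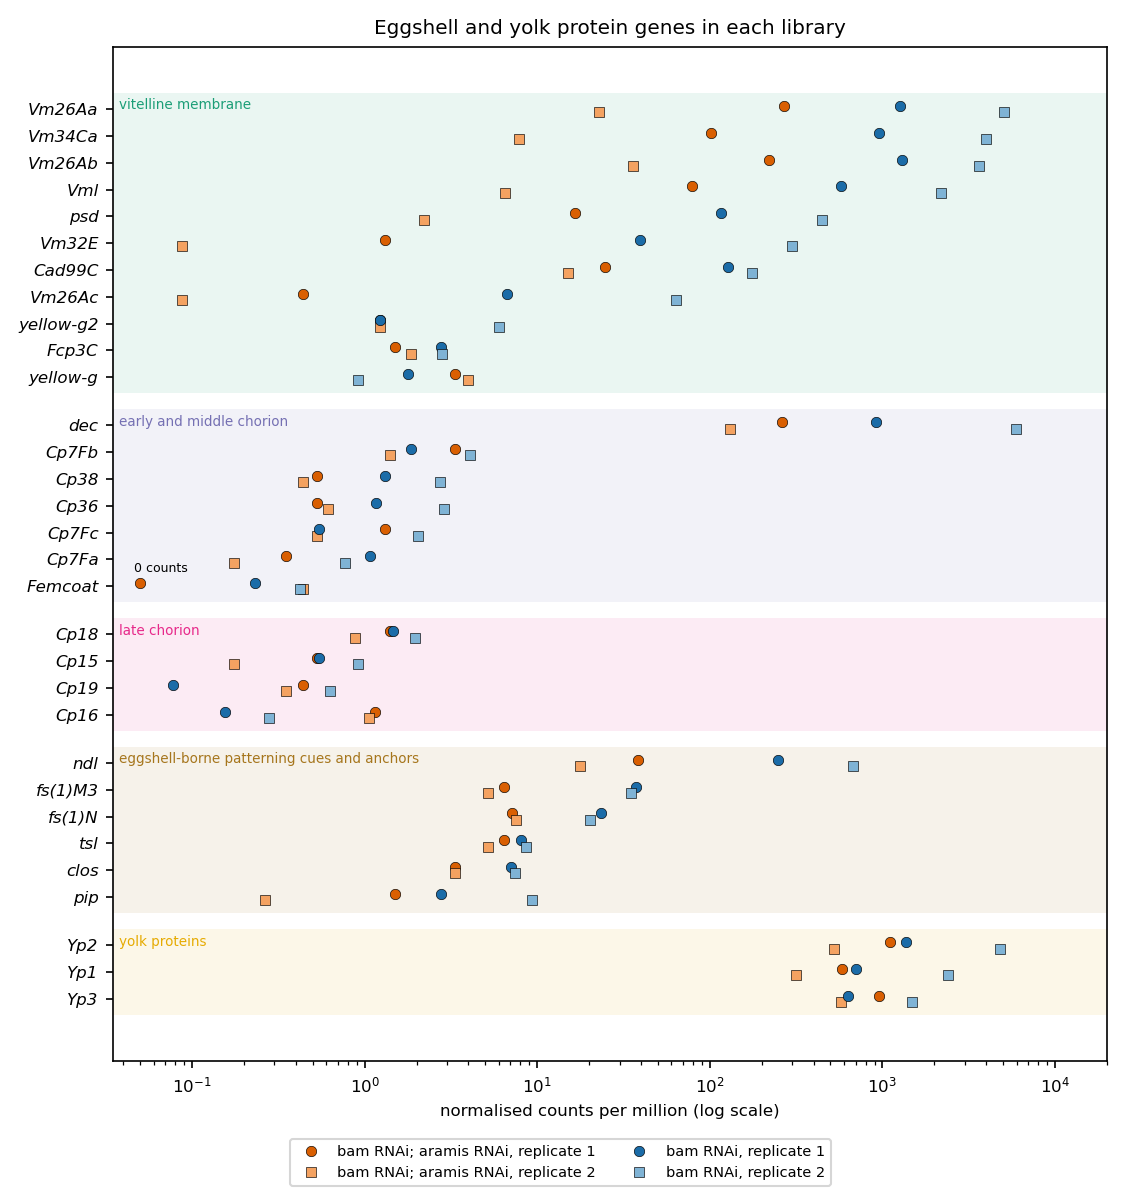
Normalised CPM (log axis) of each of the 31 genes in the 2 *aramis* RNAi libraries (orange) and the 2 >*bam* RNAi libraries (blue), with genes grouped by class and ordered by their mean in >*bam* RNAi; points are set slightly above or below the line so that they stay visible, and the library with 0 counts of *Femcoat* is drawn at the left edge. Vitelline membrane protein genes and *dec* spread over the widest range, and the chorion genes other than *dec* reach at most 4.07 CPM in any library.

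Vitelline membrane protein genes showed the largest falls. *Vm26Aa*, *Vm26Ab*, *Vm26Ac* and *psd* lie together on chromosome arm 2L, between positions 5957004 and 5964951 of dm6, a span of 7948 bases. The Vm26A genes and *Vm34Ca* encode structural proteins of the inner eggshell layer, and *psd* (*palisade*) encodes a vitelline membrane protein needed for that layer to form. *Vm26Aa* was at 269 and 22.8 CPM in *aramis* RNAi replicates 1 and 2, against 1261 and 5051 CPM in >*bam* RNAi replicates 1 and 2. Its neighbour *Vm26Ab* was at 219.9 and 36.1 CPM in *aramis* RNAi, against 1302 and 3632 CPM in >*bam* RNAi. For both genes the 4 libraries kept the same order, with >*bam* RNAi replicate 2 highest and *aramis* RNAi replicate 2 lowest, and the genotypes did not overlap. *Vm26Aa* fell by 4.44 on the log2 scale (SE 1.17, edgeR's adjusted p = 0.0192) and *Vm26Ab* fell by 4.27 (SE 0.89, edgeR's adjusted p = 0.0076).

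*Vm26Ac* had the lowest TPM of that cluster in every library, with 5 and 1 counts in *aramis* RNAi, against 86 and 913 counts in >*bam* RNAi. The 2 *aramis* RNAi libraries were close to the floor of 3 counts, while the >*bam* RNAi libraries differed 9.64-fold from each other. The log2 fold change of *Vm26Ac* was -7.02 (SE 1.50, edgeR's adjusted p = 0.00853). *psd* was at 16.5 and 2.20 CPM in *aramis* RNAi, against 116 and 447 CPM in >*bam* RNAi, without overlap, and fell by 4.91 (SE 0.88, edgeR's adjusted p = 0.00423).

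*Vm32E*, *Vm34Ca* and *Vml* lie outside the cluster. *Vm32E*, a vitelline membrane gene that follicle cells switch on later than the others, had 15 and 1 counts in *aramis* RNAi, against 507 and 4261 counts in >*bam* RNAi. Its fall was the largest of the 31 genes, with a log2 fold change of -7.89 (SE 1.38, edgeR's adjusted p = 0.00388). *Vm34Ca* was at 101 and 7.84 CPM in *aramis* RNAi, against 961 and 3977 CPM in >*bam* RNAi. *Vml*, which encodes a vitelline membrane-like protein, was at 79.2 and 6.52 CPM in *aramis* RNAi, against 576 and 2197 CPM in >*bam* RNAi. Neither gene overlapped between genotypes, and *Vm34Ca* fell by 5.50 (SE 1.21, edgeR's adjusted p = 0.00967) and *Vml* fell by 5.02 (SE 1.12, edgeR's adjusted p = 0.0101). The lowest >*bam* RNAi library exceeded the highest *aramis* RNAi library by between 4.69-fold (*Vm26Aa*) and 29.7-fold (*Vm32E*) over these 7 genes.

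*Vm32E* was called whichever library was left out (edgeR's adjusted p from 0.0265 to 0.0485), and the calls of the other 6 genes depended on single libraries. Without >*bam* RNAi replicate 2 the edgeR adjusted p was 0.227 for *Vm26Aa*, 0.141 for *Vm26Ab*, 0.149 for *Vm34Ca*, 0.155 for *Vml*, 0.103 for *psd* and 0.0523 for *Vm26Ac*. Without >*bam* RNAi replicate 1 it was between 0.0556 (*psd*) and 0.122 (*Vm26Aa*) for those other than *Vm26Ac*, and *Vm26Ac* was lost without either *aramis* RNAi library (edgeR's adjusted p = 0.0509 without replicate 1 and 0.0606 without replicate 2). In these fits the log2 fold change closest to 0 over the 7 genes was -3.12, for *Vm26Aa* without >*bam* RNAi replicate 2.

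By TPM, *Vm34Ca*, *Vm26Aa* and *Vm26Ab* ranked among the most abundant of the 16647 genes with an exon length in >*bam* RNAi, and *Vm26Ac* ranked 8636 and 10238 in *aramis* RNAi, against 5423 and 606 in >*bam* RNAi. *Vm34Ca* was at 492 and 35.2 TPM in *aramis* RNAi, ranks 292 and 4273, against 5019 and 19726 TPM in >*bam* RNAi, ranks 9 and 1. *Vm26Aa* ranked 180 and 2433 in *aramis* RNAi, against 16 and 2 in >*bam* RNAi, and *Vm26Ab* ranked 187 and 1275 in *aramis* RNAi, against 8 and 4 in >*bam* RNAi. The make-up of the 7 mRNAs also differed between libraries. *Vm34Ca* made up 21.3% and 14.7% of their summed TPM in *aramis* RNAi, against 31.8% and 35.7% in >*bam* RNAi. *Vm32E* made up 0.274% and 0.163% in *aramis* RNAi, against 1.28% and 2.64% in >*bam* RNAi, so both were a smaller part of the mix in each *aramis* RNAi library. *Vm26Ab* made up 35.8% and 52.4% in *aramis* RNAi, against 33.3% and 25.2% in >*bam* RNAi, and was the larger part there. These shares were not tested. How reads that match more than one gene were counted is not given in the sources used here, so the split among similar vitelline membrane genes is uncertain.

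Of the 4 other vitelline membrane genes, *Cad99C* fell, *yellow-g* rose, and *yellow-g2* and *Fcp3C* did not pass the test. *Cad99C* encodes a cadherin of follicle cell microvilli, which face the vitelline membrane as it forms. It was at 24.9 and 15.1 CPM in *aramis* RNAi, against 127 and 176 CPM in >*bam* RNAi, and its replicates were closer to each other than those of the structural genes. *Cad99C* fell by 2.93 (SE 0.25, edgeR's adjusted p = 0.00036), and its fits with 1 library left out ranged from -3.32 to -2.60.

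*yellow-g* and *yellow-g2*, members of the *yellow* family that act in hardening of the vitelline membrane, lie near each other on chromosome arm 3L. *yellow-g* had 38 and 45 counts in *aramis* RNAi, against 23 and 13 counts in >*bam* RNAi, and rose (log2 fold change 1.44, SE 0.42, edgeR's adjusted p = 0.0283). Its genotypes did not overlap, but the call was lost without any 1 of the 4 libraries, with edgeR adjusted p-values between 0.0616 and 0.129. *yellow-g2* had 14 counts in each *aramis* RNAi library, against 16 and 86 counts in >*bam* RNAi. Here >*bam* RNAi replicate 2 alone was high, the log2 fold change was -1.56 (SE 0.73, edgeR's adjusted p = 0.117), and without that library it was -0.0062. Without >*bam* RNAi replicate 1 *yellow-g2* passed the test (edgeR's adjusted p = 0.0456). *Fcp3C*, a follicle cell gene, had 17 and 21 counts in *aramis* RNAi, against 36 and 40 counts in >*bam* RNAi, without overlap (log2 fold change -0.74, SE 0.36, edgeR's adjusted p = 0.127).

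Among the early and middle chorion genes, *dec* (*defective chorion*) stood apart from the rest by its level. It encodes proteins that are cleaved after secretion and take part in assembling the endochorion, and follicle cells express it before the other chorion genes. *dec* was at 263 and 131 CPM in *aramis* RNAi, against 914 and 5957 CPM in >*bam* RNAi. The genotypes did not overlap, and >*bam* RNAi replicate 2 was 6.52 times replicate 1. *dec* fell by 4.12 (SE 0.86, edgeR's adjusted p = 0.00771), a call that was lost without >*bam* RNAi replicate 2 (log2 fold change -2.21, edgeR's adjusted p = 0.0722) and without *aramis* RNAi replicate 2 (-3.70, edgeR's adjusted p = 0.0554). Set against *Vm26Aa*, the TPM of *dec* was 0.127 and 0.746 times as high in *aramis* RNAi, against 0.0939 and 0.153 times in >*bam* RNAi, so *dec* was nearly level with *Vm26Aa* in *aramis* RNAi replicate 2 alone.

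*Cp36*, *Cp38* and the Cp7F genes form the chorion cluster of the X chromosome, between positions 8470888 and 8483311 of dm6, a span of 12424 bases. *Cp36* and *Cp38* encode major chorion proteins. *Cp36* had 6 and 7 counts in *aramis* RNAi, against 15 and 41 counts in >*bam* RNAi. *Cp38* had 6 and 5 counts in *aramis* RNAi, against 17 and 39 counts in >*bam* RNAi. Both were low in every library and did not overlap between genotypes. *Cp36* fell by 1.81 (SE 0.61, edgeR's adjusted p = 0.0453) and *Cp38* fell by 2.05 (SE 0.58, edgeR's adjusted p = 0.0248). Neither was called with any 1 library left out (edgeR's adjusted p from 0.0546 to 0.211 for *Cp36*, from 0.053 to 0.128 for *Cp38*), nor with DESeq2 (adjusted p = 0.09 and 0.0531).

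The Cp7F genes did not pass the test. *Cp7Fa* had 4 and 2 counts in *aramis* RNAi, against 14 and 11 counts in >*bam* RNAi, without overlap (log2 fold change -1.77, SE 0.68, edgeR's adjusted p = 0.0676). *Cp7Fb* had 38 and 16 counts in *aramis* RNAi, against 24 and 58 counts in >*bam* RNAi. *Cp7Fc* had 15 and 6 counts in *aramis* RNAi, against 7 and 29 counts in >*bam* RNAi. For *Cp7Fb* and *Cp7Fc* the genotypes overlapped, with *aramis* RNAi replicate 1 above >*bam* RNAi replicate 1, and the log2 fold changes were -0.32 (SE 0.55, edgeR's adjusted p = 0.655) and -0.49 (SE 0.75, edgeR's adjusted p = 0.62). Without >*bam* RNAi replicate 2 these differences turned to 0.35 and 0.76, and without *aramis* RNAi replicate 2 to 0.18 and 0.029, with none of these fits past the threshold. *Femcoat*, an eggshell gene that did not pass the filter, had 0 and 5 counts in *aramis* RNAi, against 3 and 6 counts in >*bam* RNAi.

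Late chorion mRNAs were near the floor in both genotypes. *Cp18*, *Cp15*, *Cp19* and *Cp16*, which encode chorion proteins made at the end of eggshell formation, lie in this order between positions 8726791 and 8732599 of chromosome arm 3L in dm6. *Cp18* had 16 and 10 counts in *aramis* RNAi, against 19 and 28 counts in >*bam* RNAi (log2 fold change -0.58, SE 0.46, edgeR's adjusted p = 0.328). *Cp15* had 6 and 2 counts in *aramis* RNAi, against 7 and 13 counts in >*bam* RNAi, and *Cp19* had 5 and 4 counts, against 1 and 9 counts. *Cp18* did not pass the test, and *Cp15* and *Cp19* had too few counts to be tested. *Cp16* went the other way, with 13 and 12 counts in *aramis* RNAi, against 2 and 4 counts in >*bam* RNAi, and rose without overlap (log2 fold change 2.27, SE 0.64, edgeR's adjusted p = 0.0246). That call was lost with any 1 library left out (edgeR's adjusted p from 0.0743 to 0.128), with DESeq2 (adjusted p = 0.098) and with scaling to somatic markers (edgeR's adjusted p = 0.0596). The muscle gene *Prm*, which encodes paramyosin, lies 258 bases beyond *Cp16* on the other strand and had 22213 and 30142 counts in *aramis* RNAi, against 16239 and 16031 counts in >*bam* RNAi (log2 fold change 0.95, SE 0.17, edgeR's adjusted p = 0.00381). Its part in the *Cp16* result was not tested. No chorion gene other than *dec* exceeded 7.38 TPM in any library.

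**Figure D2:**
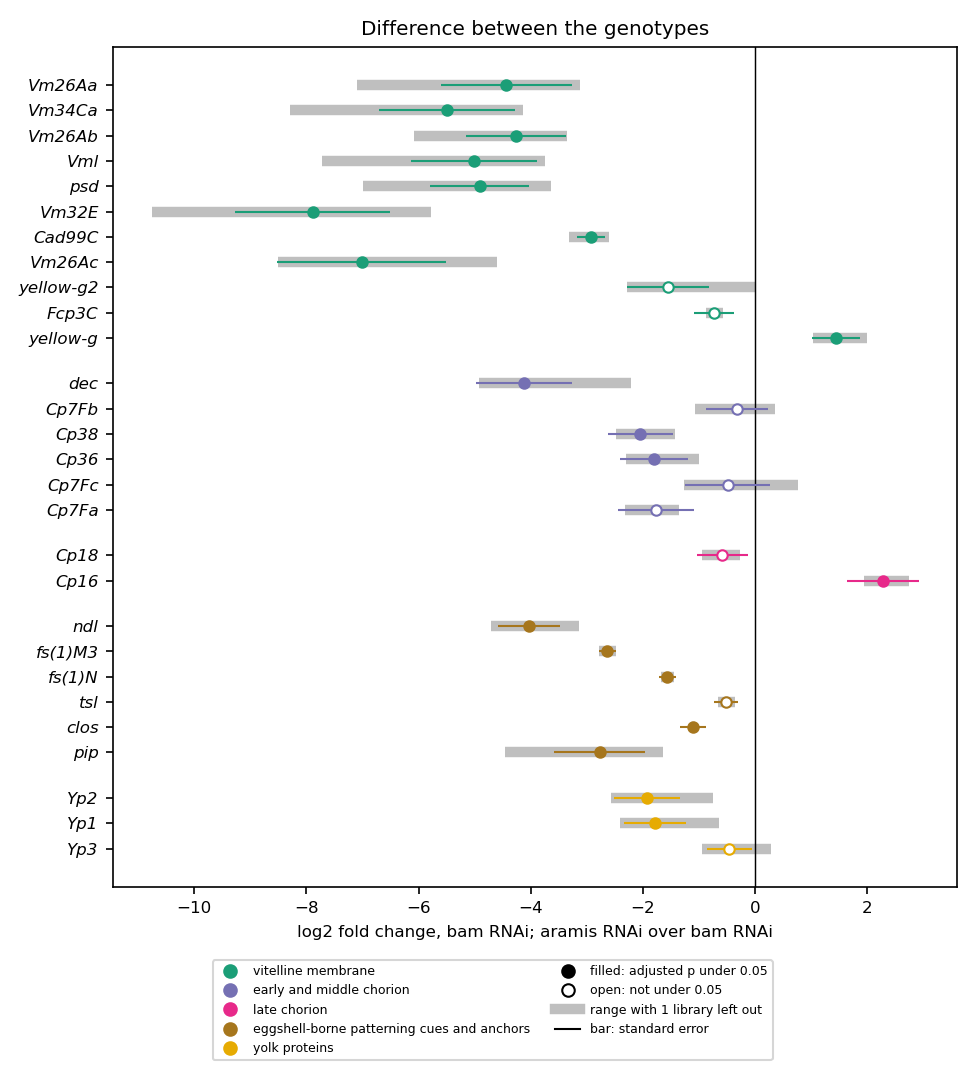
Log2 fold change of *aramis* RNAi over >*bam* RNAi for the 28 genes that passed the filter (points), with the standard error (thin bars) and the range of the values with 1 library left out (grey bars); filled points had an edgeR adjusted p under 0.05. The 7 vitelline membrane protein genes lie between -7.89 and -4.27 with wide grey bars, whereas *fs(1)M3*, *fs(1)N* and *clos* have narrow ones, and *Cp16* and *yellow-g* are the filled points above 0.

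Genes of the patterning cues and their anchors were lower in both *aramis* RNAi libraries than in either >*bam* RNAi library for all 6 genes (40.0% of all genes tested), and 5 of the 6 fell (25.0% of all genes tested). *ndl* (*nudel*) and *pip* (*pipe*) act in follicle cells at the top of the dorsal group pathway: *ndl* encodes a protease that starts the cascade outside the embryo, and *pip* a sulfotransferase that marks the ventral vitelline membrane. *ndl* was at 38.6 and 17.6 CPM in *aramis* RNAi, against 248 and 675 CPM in >*bam* RNAi, and fell by 4.04 (SE 0.55, edgeR's adjusted p = 0.00148). It was lost in 1 fit with a library left out, that without >*bam* RNAi replicate 2 (log2 fold change -3.14, edgeR's adjusted p = 0.0531). *pip* had 17 and 3 counts in *aramis* RNAi, against 36 and 133 counts in >*bam* RNAi, and fell by 2.77 (SE 0.81, edgeR's adjusted p = 0.0277). The order of the libraries was that of the vitelline membrane genes for both. *pip* was called in 1 of the fits with a library left out, that without *aramis* RNAi replicate 1 (edgeR's adjusted p = 0.0276), and it had values of 0.0905, 0.115 and 0.301 in the others. Of its 10964 exon bases, 208 are shared with *fal* on the other strand, which had 294 and 287 counts in *aramis* RNAi, against 444 and 580 counts in >*bam* RNAi.

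*tsl* (*torso-like*), a follicle cell cue for the ends of the embryo, had 73 and 59 counts in *aramis* RNAi, against 104 and 123 counts in >*bam* RNAi. The libraries did not overlap, but the difference did not pass the test (log2 fold change -0.52, SE 0.21, edgeR's adjusted p = 0.0805). *fs(1)N* (*nasrat*), *fs(1)M3* (*polehole*) and *clos* (*closca*) are germline genes, whose products the oocyte secretes and which hold the *tsl* protein in the vitelline membrane and take part in its cross-linking. *fs(1)M3* was at 6.43 and 5.20 CPM in *aramis* RNAi, against 37.3 and 35.0 CPM in >*bam* RNAi. *fs(1)N* was at 7.14 and 7.57 CPM in *aramis* RNAi, against 23.5 and 20.2 CPM in >*bam* RNAi, and *clos* at 3.35 CPM in both *aramis* RNAi libraries, against 7.04 and 7.44 CPM in >*bam* RNAi. For these 3 genes the replicates of a genotype were close to each other and the genotypes did not overlap. *fs(1)M3* fell by 2.63 (SE 0.15, edgeR's adjusted p = 0.000248), *fs(1)N* fell by 1.57 (SE 0.16, edgeR's adjusted p = 0.000519) and *clos* fell by 1.11 (SE 0.23, edgeR's adjusted p = 0.00769). The fits with 1 library left out moved them little, from -2.79 to -2.48 for *fs(1)M3*, from -1.68 to -1.46 for *fs(1)N* and from -1.15 to -1.07 for *clos*. *clos* lost its call without either >*bam* RNAi library (edgeR's adjusted p = 0.0649 without replicate 1 and 0.0752 without replicate 2). Of the 11 germline markers, 10 fell and 1 rose beside these 3 genes, with a median log2 fold change of -1.54, and their part in the result was not tested.

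Yolk protein mRNAs were abundant in all 4 libraries, with *Yp2* at rank 102 and 199 by TPM in *aramis* RNAi, against 72 and 7 in >*bam* RNAi. Their median log2 fold change was -1.79, beside -4.44 for the vitelline membrane genes. *Yp1* and *Yp2* lie head to head on the X chromosome between positions 10050951 and 10055498 of dm6, *Yp3* lies apart on the same chromosome, and all 3 encode lipase-related proteins stored in the oocyte. *Yp2* was at 1102 and 527 CPM in *aramis* RNAi, against 1377 and 4829 CPM in >*bam* RNAi. *Yp1* was at 587 and 315 CPM in *aramis* RNAi, against 706 and 2407 CPM in >*bam* RNAi. Neither overlapped, but *aramis* RNAi replicate 1 and >*bam* RNAi replicate 1 were close, >*bam* RNAi being 1.25 times as high for *Yp2* and 1.20 times for *Yp1*. *Yp2* fell by 1.93 (SE 0.59, edgeR's adjusted p = 0.0332) and *Yp1* fell by 1.79 (SE 0.56, edgeR's adjusted p = 0.0349). *Yp3* was at 956 and 579 CPM in *aramis* RNAi, against 631 and 1486 CPM in >*bam* RNAi, with overlap, and did not pass the test (log2 fold change -0.46, SE 0.40, edgeR's adjusted p = 0.371).

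The yolk protein results rested on >*bam* RNAi replicate 2. Without it the log2 fold change was -0.76 for *Yp2* (edgeR's adjusted p = 0.351), -0.65 for *Yp1* (edgeR's adjusted p = 0.35) and 0.28 for *Yp3* (edgeR's adjusted p = 0.61). *Yp1* was not called with any 1 library left out, with values of 0.0544, 0.0602 and 0.167 in the other fits, and *Yp2* was called in 1, without *aramis* RNAi replicate 1 (edgeR's adjusted p = 0.0445). DESeq2 did not call them (adjusted p = 0.0925 for *Yp2* and 0.101 for *Yp1*).

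The make-up of the yolk protein mRNAs shifted with the genotype. *Yp3* made up 32.9% and 37.3% of their summed TPM in *aramis* RNAi, against 20.8% and 15.1% in >*bam* RNAi. *Yp2* made up 43.7% and 39.2% in *aramis* RNAi, against 52.3% and 56.6% in >*bam* RNAi, and *Yp1* stayed between 23.4% and 28.3% in the 4 libraries. The ratio of *Yp3* to *Yp2* was 0.752 and 0.952 in *aramis* RNAi, against 0.397 and 0.267 in >*bam* RNAi, so it did not overlap between genotypes. With 2 libraries against 2, this ratio is given as a description with no test. Yolk proteins are also made by the fat body, and its markers moved with the genotype. Of 7 fat body markers, 4 rose and none fell, where 25.4% and 25.0% of all genes tested did. Their summed level was 1240 and 1075 CPM in *aramis* RNAi, against 317 and 271 CPM in >*bam* RNAi. The larval serum protein gene *Lsp2* rose by 2.24 (SE 0.26, edgeR's adjusted p = 0.000793), *fit* by 2.18 (SE 0.27, edgeR's adjusted p = 0.00098), the lipophorin gene *apolpp* by 2.08 (SE 0.20, edgeR's adjusted p = 0.000473) and *Apoltp* by 1.27 (SE 0.30, edgeR's adjusted p = 0.0124). The lowest marker, *to*, had 1 and 2 counts in *aramis* RNAi, against 0 and 7 counts in >*bam* RNAi, and the part of fat body RNA in the yolk protein values was not tested.

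**Figure D3:**
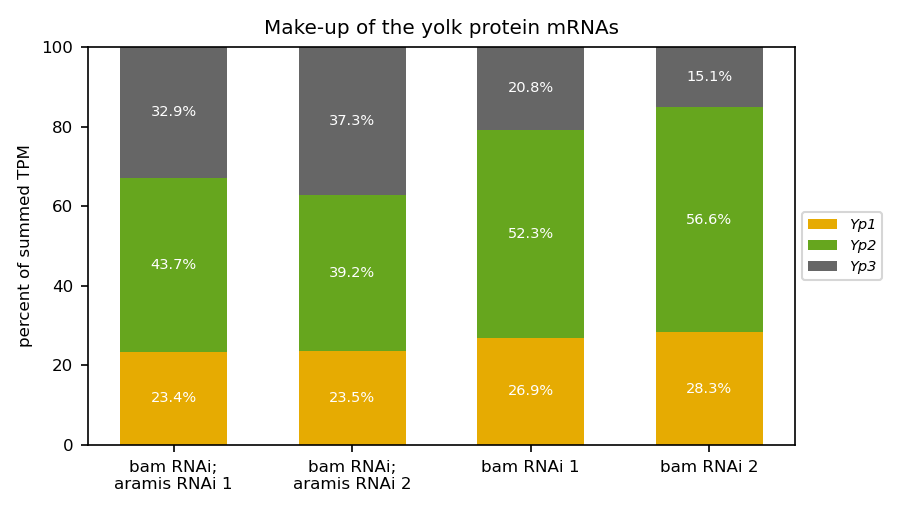
Percent of the summed TPM of *Yp1*, *Yp2* and *Yp3* taken by each gene (stacked bars) in the 2 *aramis* RNAi libraries (left) and the 2 >*bam* RNAi libraries (right). *Yp3* takes 32.9% and 37.3% in *aramis* RNAi, against 20.8% and 15.1% in >*bam* RNAi.

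Summed by class, the libraries kept 1 order for every class but the late chorion genes, with >*bam* RNAi replicate 2 highest, then >*bam* RNAi replicate 1, *aramis* RNAi replicate 1 and *aramis* RNAi replicate 2. The vitelline membrane genes summed to 718 and 97.8 CPM in *aramis* RNAi, against 4394 and 15853 CPM in >*bam* RNAi. The patterning genes summed to 63.4 and 39.2 CPM in *aramis* RNAi, against 327 and 756 CPM in >*bam* RNAi, and the early and middle chorion genes, nearly all of it *dec*, to 269 and 135 CPM, against 920 and 5970 CPM. For these 3 classes the lower >*bam* RNAi sum was thus well above the higher *aramis* RNAi sum. For the yolk proteins the sums were 2645 and 1422 CPM in *aramis* RNAi, against 2714 and 8722 CPM in >*bam* RNAi. Here the lower >*bam* RNAi sum and the higher *aramis* RNAi sum were nearly level. The late chorion genes summed to 3.52 and 2.47 CPM in *aramis* RNAi, against 2.24 and 3.79 CPM in >*bam* RNAi, with overlap.

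**Figure D4:**
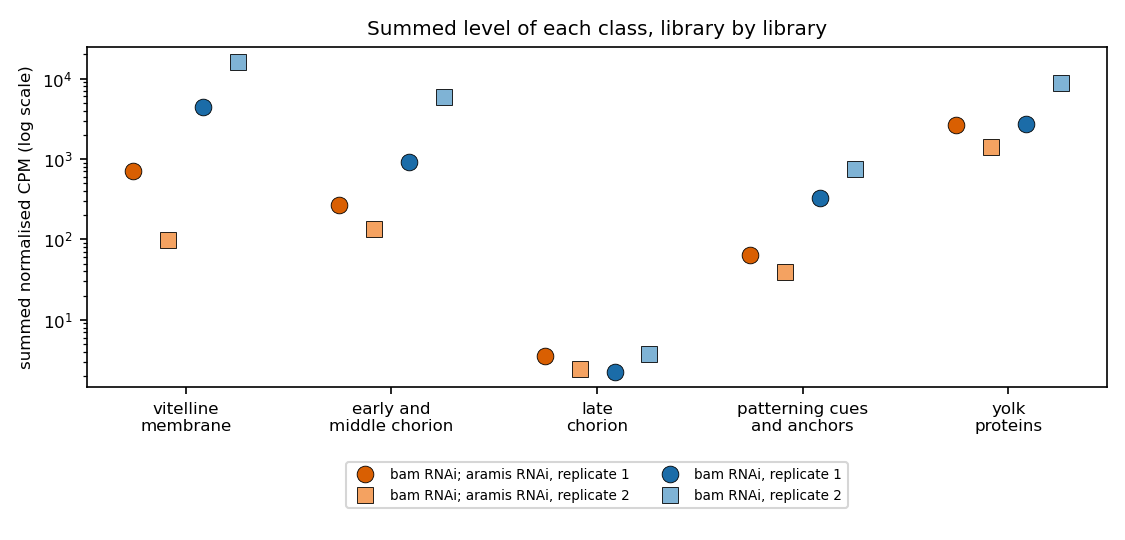
Summed normalised CPM (log axis) of each class in the 2 *aramis* RNAi libraries (orange) and the 2 >*bam* RNAi libraries (blue), 1 point per library. The vitelline membrane sums are 718 and 97.8 CPM in *aramis* RNAi and 4394 and 15853 CPM in >*bam* RNAi, while the yolk protein sums of the libraries numbered 1 are 2645 and 2714 CPM.

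Within each genotype the replicates were further apart for these genes than for most others. The *aramis* RNAi replicates were over 2-fold apart for 14 of the 28 genes that passed the filter, where 5.30% of the 9115 genes were. The >*bam* RNAi replicates were over 2-fold apart for 18 of the 28, where 4.52% of the genes were. The order >*bam* RNAi replicate 2, >*bam* RNAi replicate 1, *aramis* RNAi replicate 1, *aramis* RNAi replicate 2 held for 19 of the 31 genes, 18 of them among the 28 tested, where 10.2% of the genes tested were in this order. The more *aramis* RNAi replicate 1 exceeded replicate 2 for a gene, the more >*bam* RNAi replicate 2 tended to exceed replicate 1. *Vm26Aa* was 11.8-fold apart in *aramis* RNAi and 4.01-fold apart in >*bam* RNAi, and *Vm34Ca* 12.9-fold and 4.14-fold. *fs(1)N* and *clos* had ratios of 0.942 and 1.00 between *aramis* RNAi replicates 1 and 2, and of 0.857 and 1.06 between >*bam* RNAi replicates 2 and 1. Over the 28 genes Spearman's rho between the 2 log2 ratios was 0.70, and over the 20 genes with at least 10 counts in every library it was 0.71. Over all 9115 genes tested, Pearson's correlation of the same differences in log2 CPM was -0.03. The points come from the same 4 libraries, so rho describes these libraries and has no p.

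**Figure D5:**
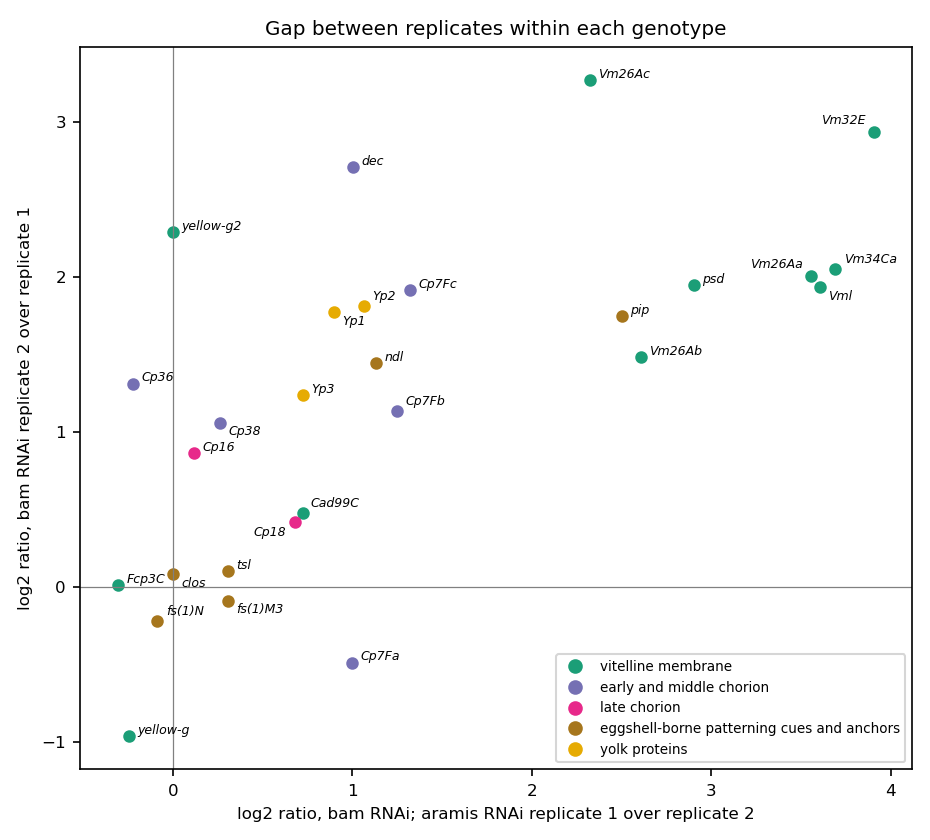
Log2 ratio between replicates for each of the 28 genes that passed the filter, *aramis* RNAi replicate 1 over replicate 2 (x axis) against >*bam* RNAi replicate 2 over replicate 1 (y axis), coloured by class. Vitelline membrane protein genes lie towards the upper right and *fs(1)N*, *fs(1)M3*, *clos* and *tsl* near the origin; *Vm26Ac*, *Vm32E* and several chorion genes have few counts in *aramis* RNAi, so their position on the x axis is uncertain.

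Other genes of the same pathways were read from the same fit. Of the yolk uptake genes, *yl* (*yolkless*), the receptor through which the oocyte takes up yolk proteins, had 96 and 56 counts in *aramis* RNAi, against 824 and 857 counts in >*bam* RNAi, and fell by 3.21 (SE 0.21, edgeR's adjusted p = 0.000251). *boca*, which encodes a chaperone that receptors of this family need, did not pass the test (log2 fold change -0.16, SE 0.11, edgeR's adjusted p = 0.271). Unlike the yolk protein genes, *yl* was nearly even between the replicates of >*bam* RNAi. In *aramis* RNAi, replicate 1 was 1.72 times replicate 2 for *yl*, beside 1.86 for *Yp1*, 2.09 for *Yp2* and 1.65 for *Yp3*.

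Of 14 further dorsal group and terminal genes, 6 fell and 3 rose, where 25.0% and 25.4% of all genes tested did, and 1, *snk*, was not tested. The largest differences were those of *wbl* (*windbeutel*), *tor*, *gd* and *spz*. *wbl*, which encodes an endoplasmic reticulum protein that *pip* protein needs, had 18 and 0 counts in *aramis* RNAi, against 139 and 223 counts in >*bam* RNAi, and fell by 4.04 (SE 0.76, edgeR's adjusted p = 0.00522). *tor*, the germline-made receptor of terminal signalling, fell by 2.40 (SE 0.24, edgeR's adjusted p = 0.000537), and *gd*, a protease of the dorsal group, fell by 1.92 (SE 0.36, edgeR's adjusted p = 0.0048). *spz*, the ligand of the *Toll* receptor, rose by 1.38 (SE 0.21, edgeR's adjusted p = 0.00228). The median of the 13 tested was -0.38, beside -0.02 for all genes.

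Of 15 regulators of follicle cell stages, 3 fell and 4 rose, close to the shares over all genes tested (25.0% and 25.4%), with a median log2 fold change of 0.11. The transcription factor genes *slbo*, which marks migrating border cells, and *peb* (*hindsight*), which follicle cells express after the mitotic stages, both fell, with log2 fold changes of -2.87 (SE 0.94, edgeR's adjusted p = 0.041) and -2.03 (SE 0.26, edgeR's adjusted p = 0.00116). *slbo* was low throughout, with 6 and 0 counts in *aramis* RNAi, against 17 and 38 counts in >*bam* RNAi. *Hr39* fell by 0.69 (SE 0.093, edgeR's adjusted p = 0.00134), and *EcR*, the ecdysone receptor gene, rose by 0.44 (SE 0.078, edgeR's adjusted p = 0.00401). Of 15 eggshell candidates and peroxidases, 10 were too low to test and 4 fell, with log2 fold changes from -3.59 (*CG13114*) to -1.92 (*Pxt*). *CG13114* was near the floor, with 5 and 0 counts in *aramis* RNAi, against 10 and 67 counts in >*bam* RNAi (SE 1.21, edgeR's adjusted p = 0.0458). *CG12398* had 304 and 126 counts in *aramis* RNAi, against 494 and 2309 counts in >*bam* RNAi, the same order of libraries as the vitelline membrane genes, and fell by 2.41 (SE 0.69, edgeR's adjusted p = 0.0264). *CG13992*, which lies 439 bases from *psd*, had 323 and 201 counts in *aramis* RNAi, against 1760 and 2613 counts in >*bam* RNAi, and fell by 2.79 (SE 0.24, edgeR's adjusted p = 0.000356).

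Most markers of the growing oocyte and nurse cells fell with these genes. Of 7 such markers, *yl* among them, 5 fell and 1 rose, where 25.0% and 25.4% of all genes tested did. The marker that rose was *grk*, by 1.01 (SE 0.12, edgeR's adjusted p = 0.00098). *exu* did not pass the test, with 409 and 57 counts in *aramis* RNAi, against 313 and 362 counts in >*bam* RNAi. The summed level of the 7 was 131 and 97.1 CPM in *aramis* RNAi, against 235 and 237 CPM in >*bam* RNAi. *osk* had 9 and 6 counts in *aramis* RNAi, against 20 and 45 counts in >*bam* RNAi, and *bcd* 32 and 13 counts, against 140 and 161 counts. The summed level was even between the >*bam* RNAi replicates, whereas that of the 31 genes was not. *orb*, at 107 and 108 CPM in those replicates, weighed most in that sum. Over the 7 markers, >*bam* RNAi replicate 2 over replicate 1 ranged from 0.887 (*grk*) to 2.04 (*osk*). The part of these markers in the results was not tested.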

How the data were processed

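The 4 ovary libraries, 2 of >*bam* RNAi; *aramis* RNAi and 2 of >*bam* RNAi, were grouped by the genotype in the labels. Their deposited files list unnormalized counts of reads for each gene, made per the submitters' processing notes with HISAT2 2.1.0 and featureCounts 1.4.6 on dm6, with DESeq2 1.24.0 also named. The annotation release, strand setting and treatment of multiply mapped reads are not given in the sources used here, so reads of a gene and of a gene on its other strand cannot be told apart, and 8 of the 31 genes share between 3 and 875 exon bases with one. Intervals and floors cover counting error only, as PCR copies are not separated.

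Ensembl release 115 (BDGP6, the same coordinates as dm6) gave symbols, positions and exon lengths, and 16647 of 17023 identifiers matched. The other 376, with 6.14% to 6.32% of the counts, were left out of TPM. The counts were tested with edgeR 4.0.16 in R 4.3.3 (TMM, default filter with a minimum count of 10, quasi-likelihood test, Benjamini-Hochberg adjustment, threshold 0.05, all 4 libraries, no replicate block) and the functions were tested on simulated data. Called means an adjusted p under 0.05, and over 4-fold adds that change. The results were recomputed with DESeq2 1.42.0, with RLE size factors, without the low-count filter, with the replicate number as a block, with scaling to the summed counts of somatic markers, without each library in turn, and, for gaps between replicates, with 3-fold in place of 2-fold. Tables were handled with Python 3.11.15 and pandas 2.3.3.

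All 31 genes are named, and of each pathway list and the fat body markers the called genes, at most the 4 with the largest change; other marker lists are given by counts. *Prm*, *boca*, *to*, *osk*, *bcd*, *grk*, *orb*, *exu*, *tud*, *Fas3*, *tj*, *fal* and *snk* were named after their values were seen. The genes and lists were chosen with earlier results of these data known. Of the listed symbols, *nos*, *vas* and *br* were not matched and not analysed here. Replicates were not copies of 1 library (chi-square over its degrees of freedom 15.4 in *aramis* RNAi and 27.2 in >*bam* RNAi). Sequences were not analysed here.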

Additional observations from a re-analysis of the deposited data

How the results depend on the processing

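Of the 18 falls, 14 were called in all 5 alternatives that kept every library and 4 in all 9 alternatives. Beside the 4590 genes called and the 18 genes of the list that fell, DESeq2 called 3925 and 14, RLE normalization 4574 and 18, and the fit without a filter on low counts 4252 and 17 (*Cp36* lost). The labels number the replicates alike in both genotypes, but same-numbered libraries did not deviate together (correlation 0.03 over 9115 genes), so the numbers do not pair them. With the replicate block, 4430 genes were called, 16 of the list fell and 2 rose, and *Yp1* (log2 fold change -1.60, edgeR's adjusted p = 0.0716) and *Yp2* (-1.76, edgeR's adjusted p = 0.0703) were the calls lost. Scaling to somatic markers moved the median log2 fold change of all genes by -0.61, called 6301 genes (725 higher and 5576 lower, against 2312 and 2278), and in the list gave 23 falls, 19 of them over 4-fold, and 0 rises. DESeq2 gave 1 rise and 12 falls over 4-fold. The somatic scaling lost *Cp16* and *yellow-g* (edgeR's adjusted p = 0.112) and added *Cp7Fa*, *Fcp3C*, *yellow-g2*, *tsl* and *Yp3*.

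With 1 library left out, 1243 to 3715 genes were called, and 4 to 14 of the list fell, 3 to 12 of them over 4-fold, and 0 rose. The log2 fold change ranged from -1.07 to 0.35 for *Cp7Fb*, from -1.28 to 0.76 for *Cp7Fc* and from -0.96 to 0.28 for *Yp3*. Without *aramis* RNAi replicate 2 it was 0.18 for *Cp7Fb* and 0.029 for *Cp7Fc*, and without >*bam* RNAi replicate 2 it was 0.35, 0.76 and, for *Yp3*, 0.28. The gaps between replicates were over 3-fold for 8 of the list in *aramis* RNAi and 12 in >*bam* RNAi, in place of 14 and 18. The share over all genes tested was taken at 2-fold only, so the 3-fold counts are not compared with other genes. The cause of these differences was not tested. Depth limits the chorion genes other than *dec*, at most 58 counts in any library. Without the filter the genes too low to test had log2 fold changes of -1.02 (*Cp15*), 0.14 (*Cp19*) and -0.55 (*Femcoat*), none of them called.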

Other observations

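Genes next to the eggshell clusters, chosen after their values were seen, were read for comparison. *CG13998* lies 184 bases from *Vm26Ab* and had 0 counts in both *aramis* RNAi libraries, against 4 and 33 counts in >*bam* RNAi, too few to pass the filter. *CG9044*, on the other side of it, had 1038 and 948 counts in *aramis* RNAi, against 882 and 1023 counts in >*bam* RNAi (log2 fold change 0.32, edgeR's adjusted p = 0.0221). *otu*, a germline gene 1696 bases from *Cp38*, had 184 and 189 counts in *aramis* RNAi, against 1069 and 1210 counts in >*bam* RNAi, and fell by 2.35 (edgeR's adjusted p = 0.000124). *CG33223* overlaps the X chorion cluster on the other strand and had 17 and 28 counts in *aramis* RNAi, against 49 and 54 counts in >*bam* RNAi (log2 fold change -0.93, edgeR's adjusted p = 0.0693).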
